A study of Rattus norvegicus with 24 samples.

Results

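The genes described here make heme in the rat: Alas1, Alas2, Alad, Uros, Urod, Cpox, Ppox and Fech, which encode enzymes of the pathway, and Slc25a37, which encodes the mitochondrial iron importer mitoferrin. They were chosen by name, and each of the 9 genes had 1 probe among the 30367 probes of the array, printed as 2 spots. Blood of single rats was hybridized to 24 microarrays with a dye for each RNA against a common reference, which the labels describe as RNA of all rats and the methods as a pool of animals not used as samples. The question put by the study was how oat beta-glucans of different molecular weight act on gene expression in blood during LPS-induced enteritis.

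All animals were male Sprague Dawley rats, 8 weeks old at the start and kept on their diets for 6 weeks. Groups C-G0 and LPS-G0 ate a semi-synthetic control diet. For C-G1 and LPS-G1 it contained oat beta-glucan of high molecular weight, called G1, and for C-G2 and LPS-G2 the oat beta-glucan of low molecular weight, called G2. The LPS groups received lipopolysaccharide into the tail vein at 10 mg/kg, and per the methods the C groups received saline by the same route. By the methods too, each was injected 2 times, and blood was taken at the end of the 6 weeks. Each of the 6 groups had 4 arrays. The arrays lay on 3 slides of 8, and every slide held all 6 groups, but diets were not balanced over slides. Each control-diet group had 2 arrays on slide 1, each G1 group 2 on slide 2 and each G2 group 2 on slide 3. On the other slides each group had 1 array. Replicates 3 and 4 of LPS-G0 have titles that name the LPS injection but another label field that reads control; they were kept in LPS-G0 after their titles.

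Heme is built in steps shared between mitochondria and cytosol. Alas1, found in all tissues, and Alas2, specific to developing red cells, catalyze the first and committed step inside mitochondria. Alad, Uros and Urod act in the cytosol, and Cpox, Ppox and Fech bring the porphyrin back to the mitochondrion, where Fech inserts the iron that Slc25a37 delivers. In blood the pathway is known from young red cells, which finish making hemoglobin after they leave the marrow.

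Values are log2 ratios of the sample channel (Cy3) over the reference channel (Cy5). The sources differ on the dye of the rat RNA, Cy3 by the labels and Cy5 by the methods. With the latter the sign of every log2 ratio and difference given here would turn. Correlations between ratios would keep their signs. The labels were followed, because arrays of a group spread more in Cy3 for 95.3% of the 7074 probes that stood clear of background in both dyes on all arrays. Probes of Alas1, Alas2, Alad, Urod, Fech and Slc25a37 were well above background in Cy3 on 24 of 24 arrays, that of Ppox on 19 and that of Uros on 15. Cpox, the coproporphyrinogen oxidase, reached that level on 0 of 24 arrays, so no fold is given for it. Uros and Cpox did not reach the filter, which asked for 4 of 4 arrays in at least 1 group, and the other 7 genes were tested.

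Of the red cell genes listed as markers, 24 were on the array, 20 of them were well above background on all 24 arrays, and 0 were below it on every array, so the blood held red cell RNA beside that of white cells and platelets. The number of probes well above background in Cy3 ran from 7788 to 15389 per array, with medians of 11204, 10564.5 and 13535.5 on slides 1, 2 and 3. Array number and this signal limit the precision of what follows.

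The results turn on a contrast between Alas2, whose ratio barely moved, and Urod, the only gene with an adjusted p under 0.05 in the main fit. A larger difference, that of Slc25a37 between C-G1 and C-G0, did not pass (-1.07, unadjusted p = 0.000734, adjusted p = 0.104 by limma). The median Cy3 signal was 201613 for the Alas2 probe and 21432.9 for the Urod probe. The part of signal level in this contrast was not tested. The Alas2 probe is given whole, and of the Urod probe the last 30 bases are given, with the letters AATAAA, those of the usual poly(A) signal, in capitals. These are the sequences on the array, from the 5′ end. In the files' rn4 coordinates the Alas2 probe lies at chrX:39810353-39810412 on the plus strand and the Urod probe at chr5:137296424-137296483 on the minus strand.
Alas2 probe: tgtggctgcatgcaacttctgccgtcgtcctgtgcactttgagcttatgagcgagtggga
Urod probe, bases 31 to 60: acagattgtttccaggagAATAAAacttcc

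The only difference to pass the test was in Urod, the uroporphyrinogen decarboxylase that closes the cytosolic part of the pathway. In LPS-G0 its log2 ratio was 0.22, 0.31, 0.12 and -0.07 in replicates 1 to 4, and in LPS-G1 it was -0.13, -1.29, -0.50 and -0.42. All 4 arrays of LPS-G1 lay below all 4 of LPS-G0, as for 14.6% of all probes tested. Replicate 2 of LPS-G1 lay lowest. Urod was lower in LPS-G1 by 1.66-fold, a log2 difference of -0.73 (SE 0.21, 95% interval -1.18 to -0.28, adjusted p = 0.0444 by limma with Benjamini-Hochberg adjustment over 10315 probes). The exact two-sided permutation test gave 0.0286, the smallest p that 4 against 4 arrays can reach, which any probe without overlap reaches. In bulk blood, fewer red cells or young red cells and less of a transcript per cell cannot be told apart.

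Urod was the 1 of 7 tested heme synthesis genes to pass in LPS-G1 vs. LPS-G0. Of all probes tested 8.93% passed, 8.39% as lower and 0.543% as higher. At an unadjusted p under 0.05, 2 of the 7 genes were lower (Alad and Urod), as were 19.3% of all probes, and 5 of the 7 differences were below 0, as for 44.6% of all probes. No gene of the pathway passed the test together with a change of 2-fold or more, which 0.989% of all probes did. The median log2 difference of the 7 genes was -0.37, beside 0.06 over all probes. The Urod call was close to the threshold. It was lost with slide as a block (-0.68, adjusted p = 0.0739), without LPS-G0 replicates 3 and 4 (-0.85, adjusted p = 0.127) and with all 24 arrays in the model (-0.73, adjusted p = 0.207), by limma in each case. Without replicate 2 of LPS-G1 the difference was -0.49 (adjusted p = 0.144 by limma), and leaving out any of 7 of the 8 arrays ended the call.

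Alad, the aminolevulinate dehydratase of the first cytosolic step, lay next to Urod. Its log2 ratio was 0.47, 0.54, 0.61 and 0.05 in LPS-G0 and 0.05, -0.86, 0.04 and 0.05 in LPS-G1. The groups barely failed to overlap, since the highest LPS-G1 array read 0.0524 and the lowest LPS-G0 array 0.0547. The difference was -0.60 (SE 0.22), which did not pass (adjusted p = 0.100 by limma), and without LPS-G1 replicate 2 it was -0.37. Groups failed to overlap in the lower direction for 14.6% of all probes.

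Ppox, the protoporphyrinogen oxidase of the last step but one, had a wider spread. It read 0.51, 1.12, -0.35 and -0.42 in LPS-G0 and 0.22, -1.94, -0.43 and -0.05 in LPS-G1. The lowest of these, LPS-G1 replicate 2, was not well above background in Cy3. The groups overlapped, and the difference of -0.77 (SE 0.44, adjusted p = 0.268 by limma) did not pass. It was -0.30 without that array and -0.47 without LPS-G0 replicate 2. Slc25a37 had a difference of -0.37 (SE 0.27, adjusted p = 0.374 by limma), and its groups overlapped as well.

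For the first and the last enzyme of the pathway the differences were near 0. Alas2 read -0.18, -0.16, -0.71 and -0.42 in LPS-G0 and -0.07, -0.33, -0.44 and -0.55 in LPS-G1. Its difference was 0.02, with a 95% interval from -0.34 to 0.38. Alas1 had a difference of 0.03 (interval -0.38 to 0.44) and Fech, the ferrochelatase, one of -0.09 (interval -0.72 to 0.54).

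**Figure D1:**
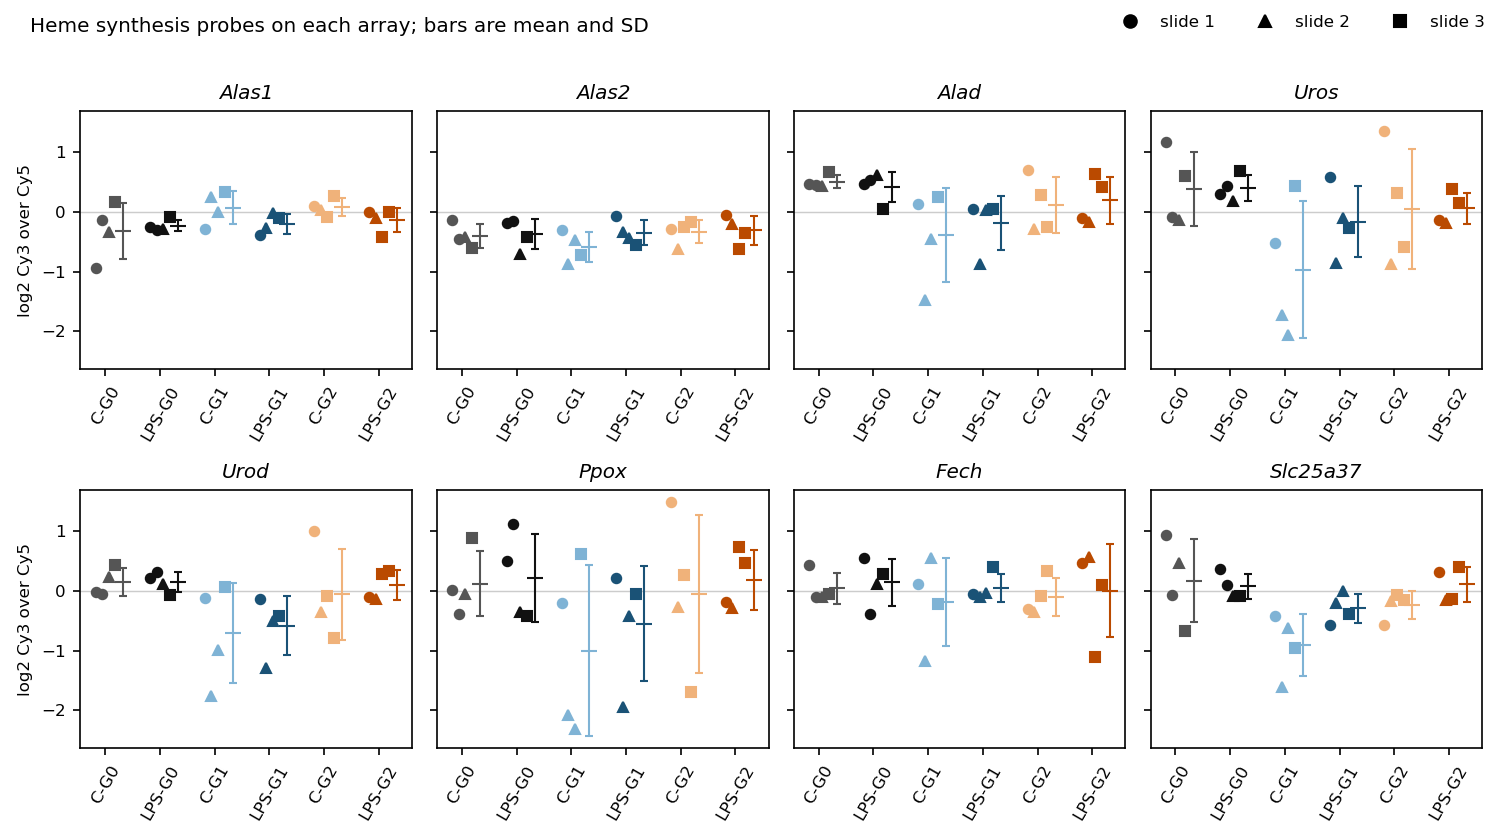
Log2 ratio of Cy3 over Cy5 (y axis) for 8 heme synthesis probes on the 24 arrays, by group (x axis); the symbol marks the slide, and bars beside the points are the mean and SD of 4 arrays. Alas2 keeps to a range of 0.82 over all arrays, while Ppox spans 3.82 and Urod 2.78, with the lowest Urod arrays in C-G1 and LPS-G1 on slide 2.

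Genes around the pathway were listed under mitochondrial transport, iron-sulfur and regulation. That list held 20 genes, of which 19 were tested, and in LPS-G1 vs. LPS-G0 2 were lower and 0 higher, a share near the 8.39% of all probes that were lower. The 2 were Hebp1, a heme-binding protein, at -1.16 (adjusted p = 0.0290), and Pgrmc1, a membrane protein reported to bind heme and to associate with ferrochelatase, at -0.64 (adjusted p = 0.0293), both by limma. The median over the list was -0.20.

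Genes that break down or move heme and genes of iron supply were too few to read against the background of 8.93% of all probes past the test. Of 10 such genes listed 5 were tested, and 0 passed in either direction in LPS-G1 vs. LPS-G0, with 1 lower at an unadjusted p under 0.05 by limma, where 19.3% of all probes were. Of 11 genes of iron supply 9 were tested and 0 passed, with 0 below an unadjusted p of 0.05. Their medians were 0.02 and -0.05, beside 0.06 over all probes.

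Red cell markers moved alongside. In LPS-G1 vs. LPS-G0, 7 of the 24 on the array were lower and 0 higher, where 8.39% of all probes were lower and 0.543% higher. The median log2 difference of the 24 was -0.56, beside 0.06 over all probes. Among those lower were Hemgn, Ca1, Gypc, Kel and Epb42, and the red cell transcription factor Klf1 at -0.81. The mean log2 ratio over the 20 markers measured on every array ran from 0.16 to 0.28 in LPS-G0, and from -0.64 to -0.04 in LPS-G1. The globin genes Hbb and Hba1 had differences of 0.16 and 0.07, which did not pass (adjusted p = 0.612 and 0.731 by limma). Of 5 neutrophil, 9 platelet, 5 B cell, 9 T cell and 7 monocyte genes tested, 0 passed in this comparison, where 8.93% of all probes did. Each of these lists is too short to read against that share. At an unadjusted p under 0.05 by limma 2 platelet genes were lower, where 19.3% of all probes were, and 1 monocyte gene was higher. Of 7 NK cell genes tested 1 passed, as lower. The part of red cell content in the Urod difference was not tested.

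Within slides Urod was lower in LPS-G1 than in LPS-G0 on each of the 3, by -0.40, -1.01 and -0.34 as log2 differences. Slide 2 held 2 LPS-G1 arrays and 1 LPS-G0 array, and the difference was the widest there. Without slide 2, an alternative chosen after the values were seen, the difference was -0.43 (adjusted p = 0.400 by limma).

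On the control diet no gene of the pathway differed detectably with LPS. In LPS-G0 vs. C-G0, 0 of 7 genes passed by limma and 0 had an unadjusted p under 0.05, where 0.00969% of all probes passed, a single one, and 15.2% had an unadjusted p under 0.05. The 7 log2 differences ran from -0.09 to 0.10. Urod read -0.01, -0.06, 0.24 and 0.44 in C-G0, overlapping LPS-G0, and its difference was -0.01 with a 95% interval from -0.46 to 0.44. Ppox was the least certain, with an interval from -0.83 to 1.02.

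For the diet with G2 no gene of the pathway passed. In LPS-G2 vs. LPS-G0 0 of 7 genes passed by limma and 0 had an unadjusted p under 0.05, where 0% and 8.23% of all probes did. Urod read -0.11, -0.14, 0.29 and 0.33 in LPS-G2, and its difference from LPS-G0 was -0.05 (95% interval -0.50 to 0.40). The direct comparison of both diets, LPS-G1 vs. LPS-G2, also had 0 of 7 genes past the test by limma and 0% of all probes. There Urod differed by -0.68 (SE 0.21, unadjusted p = 0.00572, adjusted p = 0.679 by limma), and it was the 1 gene of the pathway under an unadjusted p of 0.05 in the lower direction, where 4.52% of all probes were. Without LPS-G1 replicate 2 the difference was -0.44. A difference between the diets in Urod was thus not established. LPS-G1 and LPS-G2 were both set against LPS-G0, so these comparisons share 4 arrays.

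**Figure D2:**
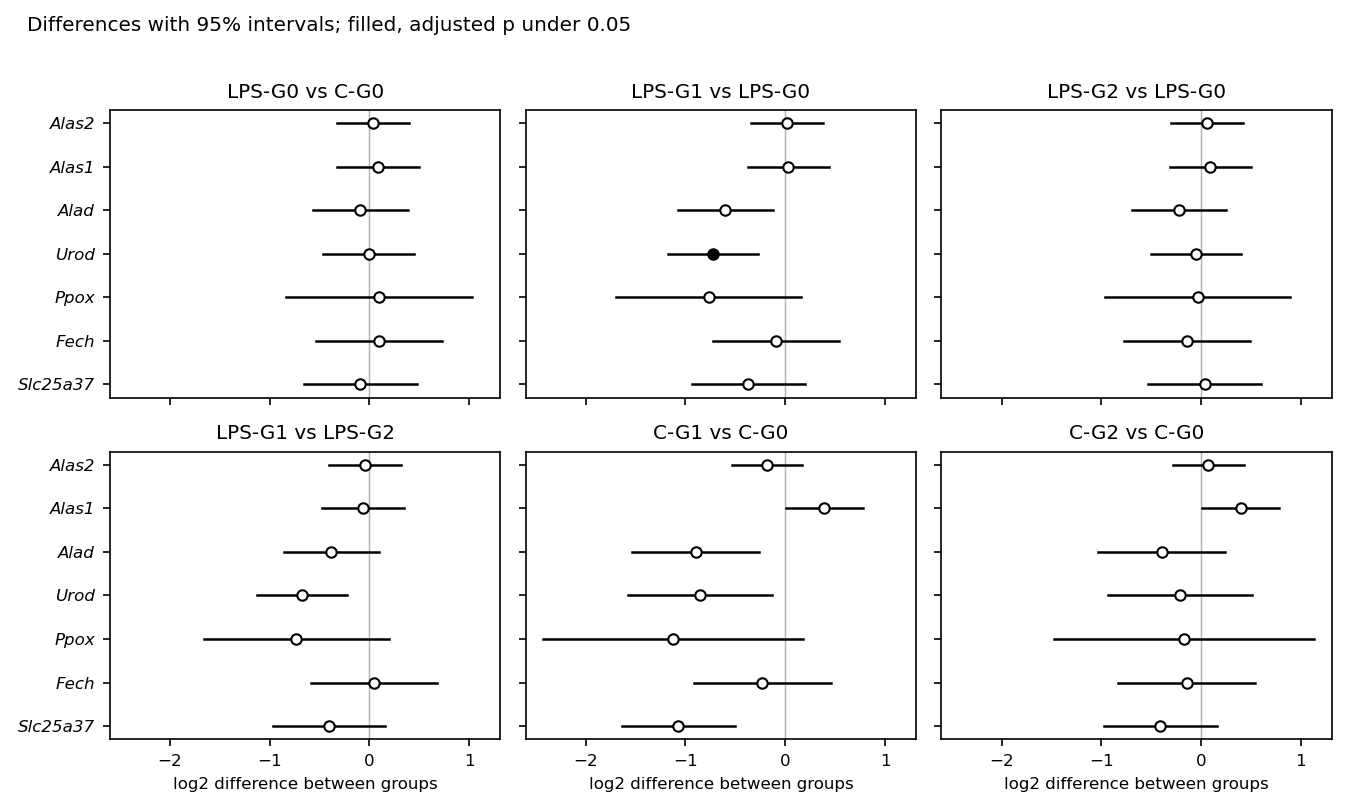
Log2 differences between groups (x axis) of the 7 tested genes (y axis) in 6 comparisons, with 95% intervals from the limma fit; filled points have an adjusted p under 0.05. Urod in LPS-G1 vs. LPS-G0, at -0.73, is the 1 filled point.

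Without LPS, the high-molecular-weight diet came with the largest differences in the pathway, but none passed. In C-G1 vs. C-G0, 0 of 7 genes passed by limma, where 0.028% of all probes did. At an unadjusted p under 0.05 there were 3 lower and 1 higher, where 15.8% of all probes were lower and 12.1% higher. The median log2 difference of the 7 genes was -0.86, beside 0.02 over all probes. These arrays are not those of the LPS-G1 and LPS-G0 groups.

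Slc25a37, the iron importer, had the smallest p of the 7 genes in this comparison. It read 0.94, -0.06, 0.47 and -0.68 in C-G0 and -0.43, -1.61, -0.62 and -0.96 in C-G1. The groups overlapped through replicate 4 of C-G0 alone. The difference was -1.07 (SE 0.27, unadjusted p = 0.000734, adjusted p = 0.104 by limma), and without that array it was -1.35 (adjusted p = 0.0054).

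Alad and Urod were low on 2 arrays of C-G1. Alad read 0.48, 0.45, 0.43 and 0.68 in C-G0 and 0.14, -1.48, -0.46 and 0.25 in C-G1, without overlap, as did 3.97% of all probes in the lower direction. Urod read -0.12, -1.76, -0.996 and 0.06 in C-G1, overlapping C-G0. The differences were -0.90 (SE 0.31, adjusted p = 0.126) for Alad and -0.86 (SE 0.35, adjusted p = 0.141) for Urod, by limma. Without C-G1 replicate 2 they were -0.53 and -0.51.

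The low readings of C-G1 came from replicates 2 and 3, which lay on slide 2. Ppox read -0.20, -2.09, -2.32 and 0.61, and Uros -0.52, -1.73, -2.06 and 0.44. On replicates 2 and 3 neither probe was well above background in Cy3, so these low ratios are imprecise. The same slide held C-G0 replicate 3 and LPS-G0 replicate 3, whose Urod ratios were 0.24 and 0.12. Within slides the Urod difference between C-G1 and C-G0 was -0.09, -1.62 and -0.38. Without slide 2 it was -0.15, that of Alad -0.34, that of Ppox 0.03 and that of Slc25a37 -0.76, and none of these passed. The red cell marker mean in C-G1 ran from -1.52 to -0.21, against -0.23 to 0.39 in C-G0, and its part in these differences was not tested.

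Alas1 ran the other way from the rest. Its log2 ratio was -0.94, -0.14, -0.34 and 0.17 in C-G0 and -0.29, 0.25, 0.00197 and 0.33 in C-G1, a difference of 0.39 (unadjusted p = 0.0486, adjusted p = 0.177 by limma). In C-G2 vs. C-G0 it differed by 0.40 (unadjusted p = 0.0447, adjusted p = 0.360 by limma). Both comparisons rest on the same 4 C-G0 arrays, of which replicate 1 was the lowest of all 24 for Alas1. Without that array the differences were 0.18 and 0.19. In C-G2 vs. C-G0, 0 of 7 genes passed by limma, where 0.028% of all probes did, and Alas1 was the 1 gene under an unadjusted p of 0.05, where 13.3% of all probes were.

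The comparisons of LPS with saline within the beta-glucan diets gave nothing past the test. In LPS-G1 vs. C-G1, 0 of 7 genes passed by limma, where 0.00934% of all probes did. Slc25a37 was 0.61 higher on the log2 scale (unadjusted p = 0.0370, adjusted p = 0.950 by limma, exact permutation p = 0.0571). Without C-G1 replicate 2 it was 0.37 higher. No other gene was under an unadjusted p of 0.05, where 2.81% of all probes were. In LPS-G2 vs. C-G2 0 of 7 passed, with 0% of all probes, and 0 had an unadjusted p under 0.05, against 1.09% of all probes. The mean LPS difference over the 3 diets ran from -0.13 to 0.29, with 0 of 7 past the test, 0 under an unadjusted p of 0.05, while 0.0187% and 9.61% of all probes were. The LPS difference on the high- or the low-molecular-weight diet was not shown to differ from that on the control diet for any of the 7 genes (0 past the test and 0 under an unadjusted p of 0.05 by limma in both tests of the difference, where 0% of all probes passed and 3.01% and 5.57% had an unadjusted p under 0.05).

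The genes of the pathway did not vary as 1 block. Over the 24 arrays Pearson's r was computed for the 28 pairs of 8 genes, Cpox left out. Alad, Uros, Urod and Ppox varied together, with r from 0.79 to 0.93 in their 6 pairs. These 4 were grouped after their correlations were seen. Urod and Alad had the highest r, 0.93 (Spearman's rho 0.92, permutation p adjusted over the 28 pairs 7e-05 and 0.00014), and 0.86 without the 2 arrays whose Alad ratio was farthest from the median. Urod and Ppox had r = 0.92 (rho 0.82, adjusted permutation p 7e-05 and 0.00014) and 0.89 without 2 arrays.

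Those relations were also there within groups and within slides. With group means subtracted, r was 0.71 to 0.92 over the 6 pairs. Urod and Alad had r = 0.74, 0.95 and 0.94 on slides 1, 2 and 3, and Urod and Ppox had 0.90, 0.89 and 0.90. The arrays share 1 reference RNA, and the Uros and Ppox ratios hold dim values. The permutation p take the arrays as exchangeable, without regard to group or slide.

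Alas2 and Fech varied apart from them, and Slc25a37 less clearly so. The other 22 pairs had a median r of 0.16 and 3 of them had an adjusted permutation p under 0.05. Alas2 had r = 0.24 with Urod, 0.19 with Alad and 0.18 with Ppox, none past the permutation test (adjusted p = 0.379, 0.499 and 0.517). Fech had r = 0.09 with Urod. Slc25a37 had r = 0.49 with Alad, 0.40 with Urod, 0.40 with Uros and 0.26 with Ppox, none past the permutation test (lowest adjusted p = 0.0511). With group means subtracted these were 0.15, 0.02, -0.02 and -0.09, and on slide 2 alone 0.84, 0.84, 0.75 and 0.73. Alas2 with Slc25a37 had 0.57 (rho 0.46, adjusted permutation p 0.0111 and 0.0896), and 0.38 without 2 arrays. Alas2 with Fech had 0.54 (rho 0.39, adjusted permutation p 0.0185 and 0.178), and 0.34 without 2 arrays. Alas1 with Slc25a37 had -0.63 (rho -0.49, adjusted permutation p 0.00724 and 0.0633), and -0.41 without 2 arrays; the relations in this paragraph that passed for r did not pass for rho.

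**Figure D3:**
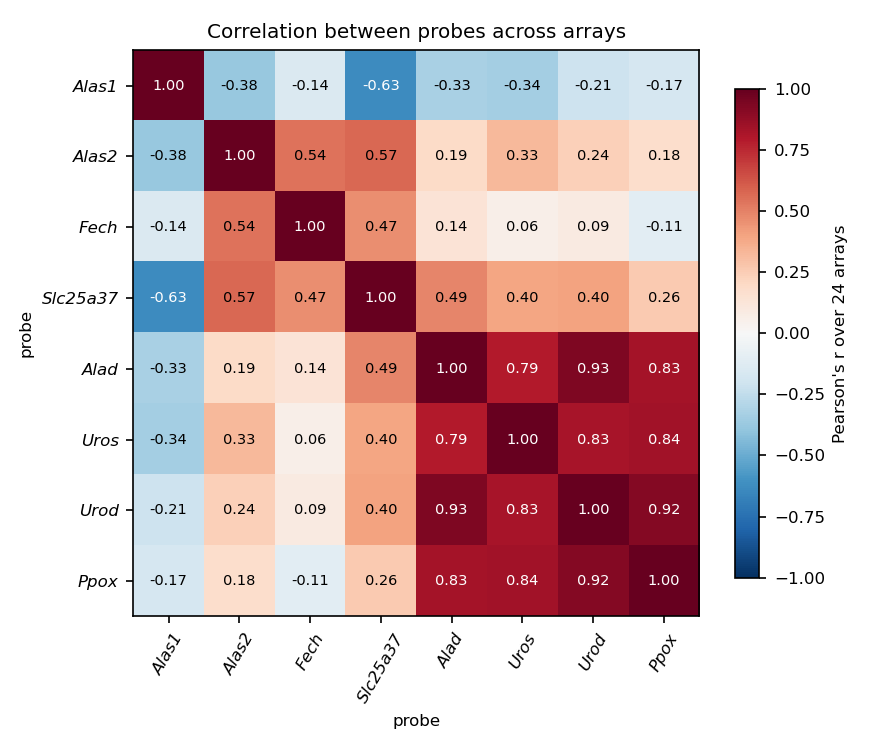
Pearson's r over 24 arrays between 8 heme synthesis probes, with rows and columns as probes and the color as r from -1 to 1. Alad, Uros, Urod and Ppox form the red block, with r from 0.79 to 0.93, and Alas1 has r below 0 with all other genes shown.

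The genes of that block followed the red cell markers. Against the mean log2 ratio of the 20 red cell markers measured on every array, r was 0.85 for Alad, 0.81 for Uros, 0.85 for Urod and 0.76 for Ppox. The Spearman values were 0.70, 0.74, 0.70 and 0.59, and all 4 passed after adjustment over 8 genes (highest adjusted permutation p 0.00562, for the rank value of Ppox). For Urod, r was 0.82 with group means subtracted, 0.50, 0.94 and 0.67 on slides 1 to 3, and 0.70 without 2 arrays. Alas2 had r = 0.42 (rho 0.33, adjusted permutation p 0.0451 and 0.148) and 0.11 without 2 arrays. Those 2 had the Alas2 ratios farthest from the median, and leaving them out narrows the range. Slc25a37 had r = 0.67 (rho 0.50, adjusted permutation p 0.00142 and 0.0235) and 0.31 without 2 arrays, and Alas1 had -0.45 (rho -0.32, adjusted permutation p 0.0451 and 0.149). Over the 24 arrays, no correlation of the 8 genes with the number of probes well above background passed (lowest adjusted permutation p 0.324). On slides 1 to 3 that r was -0.71, -0.43 and -0.13 for Urod, and -0.04, 0.45 and 0.87 for Alas1. It was also below 0 on each slide for Alad, Uros, Ppox, Slc25a37 and Alas2, and mixed for Fech. These values within slides were not tested.

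**Figure D4:**
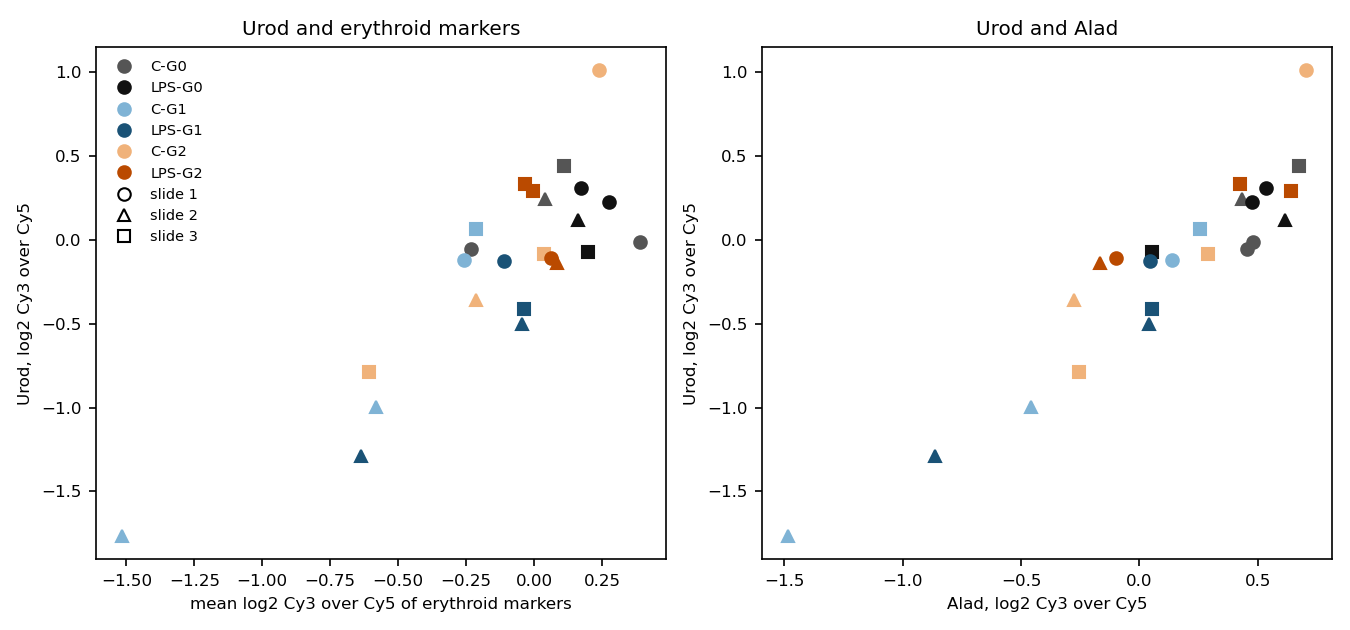
Urod log2 ratio (y axis) against the mean log2 ratio of 20 red cell markers (left) and against Alad (right) on 24 arrays, colored by group, with the symbol for the slide. The lowest Urod arrays, C-G1 replicate 2 at -1.76 and LPS-G1 replicate 2 at -1.29, are also low on both x axes, and r is 0.85 on the left and 0.93 on the right.

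The probes most like Alas2 and Urod were different genes. By Pearson's r over the 24 arrays, among 7073 other probes measured in both dyes on all arrays, those nearest to Alas2 were Slc25a39 (0.80), Bag6 (0.80), Ybx3 (0.79), Cdc25b (0.78), RGD1561520 (0.78), Srpk1 (0.74), Aup1 (0.73), Psmd4 (0.73), Ube2m (0.73) and RGD1561557 (0.72). Slc25a39 encodes a mitochondrial carrier that brings glutathione into the organelle. The lowest were RGD1565054 (-0.76), RGD1561453 (-0.73), Rpl22 (-0.73), RGD1562265 (-0.72) and Ube4a (-0.72). For Urod, a comparison added after its values were seen, the nearest were Cir1 (0.95), RGD1305420 (0.94), Psmf1 (0.94), Sec14l2 (0.93), Klhl25 (0.93), Slc25a38 (0.93), Tk1 (0.93), Hemgn (0.93), Lyl1 (0.93) and Rhd (0.92). Slc25a38 encodes the carrier that imports glycine for the first step of heme synthesis, and Hemgn and Rhd are red cell genes. These are descriptions over 24 arrays that share slides and a reference.

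Sequence before the start of each gene was compared for 7 of the 9 genes, from RefSeq on the GRCr8 build. The 250 bases before the start are shown for Urod and Alad, the pair with the highest r, with CACGTG, the letters of an E-box, in capitals. The Urod window is chr5:135705381-135705630 and the Alad window chr5:80987902-80988151, both on the minus strand and read 5′ to 3′ toward the gene.
Urod: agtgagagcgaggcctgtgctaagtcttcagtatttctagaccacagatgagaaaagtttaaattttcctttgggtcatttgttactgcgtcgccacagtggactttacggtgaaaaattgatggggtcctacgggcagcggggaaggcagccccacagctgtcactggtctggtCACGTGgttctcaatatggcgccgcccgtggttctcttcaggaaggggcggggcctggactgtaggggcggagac
Alad: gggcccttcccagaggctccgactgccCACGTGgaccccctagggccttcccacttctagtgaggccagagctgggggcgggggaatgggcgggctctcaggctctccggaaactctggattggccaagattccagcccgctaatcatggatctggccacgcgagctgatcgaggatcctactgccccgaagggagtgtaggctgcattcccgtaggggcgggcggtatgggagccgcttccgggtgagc

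CACGTG began 75 bases before the start of Urod and 223 before that of Alad, and 0 of the other 5 windows held it, beside 5.59% of 33469 rat windows. It was searched because its letters had been seen in these windows; 4 other motifs were searched as well, all on both strands. GATA with A or T before it and A or G after it was in 2 of 7 windows, those of Alas2 and Fech (27% of all windows). CCAAT was in those of Alad and Ppox (34.0%). CCACCC was in 0 of 7 (26.1%) and a Maf recognition element in 0 of 7 (0.105%). The matches overlap no other motif of this list and are a description of letters.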

How the data were processed

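Blood RNA of single rats was hybridized with a common reference on 24 SurePrint G3 Rat arrays (4 per group, 6 groups, 3 slides). The authors deposited Feature Extraction output, in which the intensities of each channel are background-subtracted and the dyes balanced by Lowess within an array, and log10 ratios of Cy5 over Cy3. The file headers give version 10.10.1.1, and the submitters' processing notes 10.7.3.1. A deposited series table holds 1511424 log10 ratios, and 1511424 of them equal those of the arrays. The authors later filtered probes by flags, which was not applied here.

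Log10 ratios were turned to log2 Cy3 over Cy5. Outlier spots, 679 to 1133 on an array, were dropped and the spots of a probe averaged. A probe was tested if some group had it well above background in Cy3 on its 4 arrays, which kept 10315 of 30367 probes for 16 arrays (without C-G1 and C-G2) and 10708 for all 24. limma 3.58.1 in R 4.3.3 was used, two-sided, with Benjamini-Hochberg adjustment over all probes tested and a threshold of 0.05. The 16 arrays were fitted together for comparisons among their groups, except that all 24 were used for the comparisons with C-G1 or C-G2, the mean LPS difference and the tests of its difference between diets. For single genes the 70 arrangements of 8 arrays were also enumerated (exact permutation test). Correlations used 100000 permutations of all 24 arrays, without regard to group or slide, whose smallest p is 1e-05. The fit was tested on simulated data. Accessions of the 9 probes matched the RefSeq symbols; coordinates of probes are rn4 and of windows GRCr8.

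Members, lists and alternatives were chosen with earlier results of these data known. Genes named are the members, up to 3 of each list that passed, the red cell markers that passed, and the 10 most and 5 least like Alas2 with a gene name. Probes named only by an accession or probe ID were left out of that ranking, which the rule as written did not state. Some genes of the lists are not reported here. Arrays were grouped by their titles. The alternatives were normexp with loess, no filter on dim probes, slide or replicate as a block, all 24 arrays, leaving out arrays of conflicting labels, array weights, an intensity trend, Cy3 alone, the methods' ANOVA with Tukey's test, the series table, and leaving out each array. Leaving out slide 2 and the likeness to Urod were added after seeing the data.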

Additional observations from a re-analysis of the deposited data

Results flagged for a closer look

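Of 48 groups of 4 arrays (8 genes in 6 groups), 3 held an array far from its other 3; chance gives about 1 in 20 groups. In LPS-G1, replicate 2 had an Alad log2 ratio of -0.86, with the other 3 between 0.04 and 0.05. In C-G0, replicate 1 had a Fech log2 ratio of 0.43, with the others between -0.11 and -0.05. In LPS-G1, replicate 4 had a Fech log2 ratio of 0.40, with the others between -0.10 and -0.04.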

How the results depend on the processing

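The count of heme synthesis genes past the test in LPS-G1 vs. LPS-G0, 1 in the main setting (Urod), was 0 without the filter on dim probes, with slide as a block, with 24 arrays in the model, without LPS-G0 replicates 3 and 4, with Cy3 alone, by the methods' ANOVA with Tukey's test and without slide 2, and 2 with array weights (Alad and Urod). It was 0 to 1 when each array was left out, and 1 without replicate 1 of LPS-G1. It was 1 with normexp and loess, an intensity trend, the series table and the replicate block. The Urod log2 difference stayed below 0 under every alternative run, from -0.88 to -0.43. In C-G1 vs. C-G0, where 0 passed, 1 gene (Slc25a37) passed with the replicate block, and 0 to 1 when each array was left out; the 1 came without replicate 4 of C-G0. In the other 9 comparisons the count was 0 under every alternative run. The cause of these shifts was not tested.

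Replicate numbers were not treated as pairs in the main fit. The correlation of deviations from group means averaged 0.11 for arrays sharing a number (lowest -0.31) and -0.04 for the others. It averaged 0.11 for arrays sharing a slide and -0.05 for arrays on different slides. Replicate number and slide partly coincide, so their parts cannot be told apart here. The replicate block left 1 gene past the test in LPS-G1 vs. LPS-G0, and moved the count over all probes from 921 to 1268 there and from 3 to 600 in C-G1 vs. C-G0. Dim Cy3 signal limits Uros, Ppox and Cpox.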
